A study of Mus musculus with 4 samples.

Results

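The Fc gamma receptors are the cell surface receptors through which leukocytes read immunoglobulin G (IgG), and this account covers the 4 mouse receptors Fcgr1, Fcgr2b, Fcgr3 and Fcgr4 together with Fcgrt, the alpha chain of the neonatal Fc receptor. These 5 genes were taken by symbol from the platform table, out of 18193 genes with a probe set of their own, and were covered by 10 probe sets. The samples came from fibrotic liver of C57BL/6 mice, and the labels call them both liver tissue and cells derived from bone marrow, with 2 arrays for granulocyte colony-stimulating factor (G-CSF) and 2 for its vehicle. G-CSF is the growth factor under which marrow makes and lets out neutrophils. In the G-CSF group the animals had 30 carbon tetrachloride injections at 1 ml/kg to produce fibrosis, and recombinant human G-CSF at 100 µg/kg over the last 7 days. In the PBS group the same 30 injections were given, with the vehicle, PBS (phosphate-buffered saline) holding 0.1% mouse serum albumin, in place of G-CSF. Both groups therefore carried the liver injury, and no uninjured liver was analysed here. No sort or gate, age or sex is given in the labels, nor do they say whether animals were pooled or whether the arrays came from separate animals, so the p-values measure only the spread between these arrays.

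In mice, Fcgr1, Fcgr3 and Fcgr4 are activating receptors that signal through the shared gamma chain Fcer1g and the kinase Syk, whereas Fcgr2b carries an inhibitory motif in its own tail and recruits the phosphatase Inpp5d. Neutrophils and macrophages carry activating receptors, natural killer cells carry Fcgr3, B cells carry Fcgr2b, and the sinusoidal endothelium of liver uses Fcgr2b to take up small immune complexes. Fcgrt works inside endosomes, where it pairs with B2m and returns IgG and albumin to the circulation.

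Hepatocyte transcripts were abundant on all 4 arrays: 7 of 7 tested hepatocyte markers, Alb among them, lay above the array background on every array, so the RNA was not that of leukocytes alone, and which of the labels' descriptions fits the samples was not settled. As the background of an array served the brightest of 27 control probe sets whose target was not added. It was 86.4 and 63.0 on the G-CSF arrays and 106 and 94.6 on the PBS arrays. PBS replicate 1 was the array least like the others, with correlations of 0.81 to 0.84 with them over 12187 tested genes. It also had the highest summed signal of T cell markers. Its natural killer cell sum was the highest only through Gzma, singled out after its values were seen. Without Gzma the sum of the 4 other tested markers was the lowest there (751, against 956 to 1436 on the others). Prf1, 1 of those 4, was nevertheless also highest on that array. Cd3g, chosen after its values were seen, had 4116 on PBS replicate 1, against 136 to 185 on the others. Whether this array came from a different preparation was not tested, and each G-CSF minus PBS difference below includes whatever sets it apart. Receptor differences are therefore also given against either PBS array alone. The ratio of 3' to 5' Gapdh control signals was 20.2 and 19.1 on the G-CSF arrays and 15.7 and 14.8 on the PBS arrays, so this sign of RNA quality also separated the groups and its part in the differences was not tested.

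Fcgr3, Fcgr4 and Fcgr2b had higher signals on both G-CSF arrays than on either PBS array, while for Fcgr1 and Fcgrt the G-CSF arrays lay between the PBS arrays. Each difference is log2(signal + 23) in G-CSF minus that in PBS, ± the SE from limma (n = 2 arrays per group). A gene counts as called at a Benjamini-Hochberg adjusted p below 0.05 over all 12187 tested genes. All 5 genes passed the filter on low values, and 0 of the 5 were called, as were 0 of all tested genes (0%). In the same limma fit 1 of the 5, Fcgr3, had an unadjusted p below 0.05 with a higher level, against 3.13% of tested genes (3.52% in either direction). For 3 of 5 genes the groups were apart with G-CSF higher, a pattern found in 18.6% of tested genes, and for 0 of 5 were they apart with G-CSF lower, against 12.1%. For 1 of 5, Fcgr3, the groups were apart with G-CSF at least 2-fold higher, against 4.04% of tested genes, and 0 of 5 were lower by as much, against 1.52%. The median difference of the 5 genes was 0.93, and that of all tested genes was 0.07. Against PBS replicate 1 alone these medians were 1.56 and 0.19, and against PBS replicate 2 alone 0.19 and 0.0007. In bulk RNA, fewer cells of a type and less RNA per cell cannot be told apart.

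The sequences before the annotated start of Fcgr1, Fcgr3, Fcgr4 and Fcgr2b are shown because these genes share the low signal on PBS replicate 1 but differ in whether the G-CSF and PBS arrays were apart. Each is 250 bases from RefSeq on build GRCm38.p6, read 5′ to 3′ on the strand of the gene. Fcgr1 lies at chr3:96293970-96294219, minus strand, Fcgr3 at chr1:171059404-171059653, minus strand, Fcgr4 at chr1:171018676-171018925, plus strand, and Fcgr2b at chr1:170976072-170976321, minus strand. Capitals mark GAGGAAG on either strand, which holds the GGAA core read by ETS factors such as the myeloid regulator PU.1, and TTCNNNGAA, the spacing read by STAT factors, which reads the same on both strands.
Fcgr1: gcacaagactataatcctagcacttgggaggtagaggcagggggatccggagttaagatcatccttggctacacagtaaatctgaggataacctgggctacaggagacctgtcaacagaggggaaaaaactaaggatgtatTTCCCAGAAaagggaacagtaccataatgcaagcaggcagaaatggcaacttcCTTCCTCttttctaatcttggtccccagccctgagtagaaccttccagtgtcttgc
Fcgr3: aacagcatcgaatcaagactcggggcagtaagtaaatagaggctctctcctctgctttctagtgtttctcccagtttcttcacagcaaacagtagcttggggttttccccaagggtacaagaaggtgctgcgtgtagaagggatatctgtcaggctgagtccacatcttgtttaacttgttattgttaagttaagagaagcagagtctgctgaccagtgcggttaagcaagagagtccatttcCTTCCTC
Fcgr4: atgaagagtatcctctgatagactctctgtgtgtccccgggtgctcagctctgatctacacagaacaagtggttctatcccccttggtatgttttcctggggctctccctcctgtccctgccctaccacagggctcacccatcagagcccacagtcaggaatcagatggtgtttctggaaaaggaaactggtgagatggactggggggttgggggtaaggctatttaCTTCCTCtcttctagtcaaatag
Fcgr2b: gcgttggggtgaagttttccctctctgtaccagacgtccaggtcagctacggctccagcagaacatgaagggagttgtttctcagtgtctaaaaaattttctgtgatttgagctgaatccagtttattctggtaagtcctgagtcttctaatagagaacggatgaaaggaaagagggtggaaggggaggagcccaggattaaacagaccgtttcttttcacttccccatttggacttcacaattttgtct
GAGGAAG was found, on the reverse strand as CTTCCTC, 56 to 50 bases before the start in Fcgr1, 23 to 17 in Fcgr4 and 7 to 1 in Fcgr3. TTCNNNGAA was found once, in Fcgr1, as the capitals 109 to 101 bases before the start. The 250-base windows of Fcgr2b and Fcgrt held neither run of letters. Of 27025 promoter windows of that length, 10.4% held GAGGAAG and 7.18% held TTCNNNGAA. The gene with a match to both, Fcgr1, was one of the 2 genes whose groups overlapped, and the match is a description of the letters only.

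Fcgr3, the low-affinity activating receptor, had signals of 3615 and 2359 in G-CSF replicates 1 and 2, against 848 and 1694 in PBS replicates 1 and 2. Both G-CSF arrays were above both PBS arrays. The difference was 1.27 ± 0.48, or 2.41-fold, with a 95% interval of 0.05 to 2.49 (limma adjusted p = 0.988). Against PBS replicate 1 alone it was 1.76 and against PBS replicate 2 alone 0.78, so the direction held with either array and the size did not.

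Fcgr4, the activating receptor that binds IgG2a and IgG2b and is carried by mouse neutrophils and monocytes, had signals of 1450 and 1191 with G-CSF and 363 and 1153 with PBS. The groups were apart, but the lower G-CSF array was only just above PBS replicate 2. The difference was 0.99 ± 0.60 with a 95% interval of −0.54 to 2.51 (limma adjusted p = 0.988). Against PBS replicate 1 alone it was 1.79, or 3.46-fold, and against PBS replicate 2 alone it was 0.19, or 1.14-fold, so nearly all of it rested on PBS replicate 1.

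Fcgr1, the high-affinity receptor, had signals of 662 and 763 with G-CSF and 451 and 976 with PBS on its brighter probe set. The G-CSF arrays lay inside the range of the PBS arrays. The difference was 0.09 ± 0.46, and its 95% interval of −1.09 to 1.27 covered more than a 2-fold change in either direction (limma adjusted p = 0.996). It was 0.63 against PBS replicate 1 alone and −0.45 against PBS replicate 2 alone. The second Fcgr1 probe set, 1436625_at, was dimmer, with signals of 235 and 178 with G-CSF and 166 and 323 with PBS. Its difference was −0.17 ± 0.43 in the fit over probe sets, so the probe sets stood on opposite sides of 0 and neither was distinguishable from it.

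Fcgr2b, the inhibitory receptor, was measured by 5 probe sets. On the brightest, 1435477_s_at, the signals were 3398 and 4260 with G-CSF and 1279 and 3097 with PBS. Both G-CSF arrays were above both PBS arrays. The difference was 0.93 ± 0.51, or 1.90-fold, with a 95% interval of −0.38 to 2.23 (limma adjusted p = 0.988). It was 1.56 against PBS replicate 1 alone and 0.29 against PBS replicate 2 alone. The suffix _s_at marks probes shared with other transcripts and _x_at probes that may cross-hybridise, which matters here because Fcgr2b and Fcgr3 are close paralogs. The other bright Fcgr2b probe sets gave the same order of the groups. Probe set 1435476_a_at had signals of 2371 and 2418 with G-CSF and 846 and 1732 with PBS, a difference of 0.97 ± 0.45. Probe set 1455332_x_at differed by 0.87 ± 0.52. The dimmer 1451941_a_at, with 561 and 823 in G-CSF and 146 and 430 in PBS arrays, gave the widest difference, 1.34 ± 0.56. These 4 probe sets thus ran from 0.87 to 1.34, with G-CSF higher against either PBS array in each. The fifth, 1447622_at, with signals of 67.2 and 17.7 with G-CSF and 10.2 and 62.0 with PBS, was below background on all 4 arrays and below the filter.

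Fcgrt, the neonatal receptor, had signals of 1270 and 1254 with G-CSF and 515 and 2172 with PBS. The G-CSF arrays were nearly equal and lay between the PBS arrays, which were 4.08-fold apart. The difference was 0.24 ± 0.71 with a 95% interval of −1.56 to 2.05 (limma adjusted p = 0.990). It was 1.26 against PBS replicate 1 alone and −0.77 against PBS replicate 2 alone, so its direction turned with the PBS array used.

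Of the 9 probe sets above the filter, 6 had both G-CSF arrays above both PBS arrays and 3 overlapped, where 17.6% of 19947 tested probe sets were apart in that direction. The 6 stand for 3 genes, since 4 of them measure Fcgr2b. In the limma fit over probe sets 0 of the 9 were called, and 0 of all tested probe sets (0%) were.

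The receptors shared a low signal on PBS replicate 1. All 10 probe sets were lowest on that array, and so were all 5 genes, whereas 47.0% of tested genes had their lowest value there. PBS replicate 2 was at least 2-fold above PBS replicate 1 for 4 of the 5 genes, against 20.0% of tested genes. The ratio of PBS replicate 2 to PBS replicate 1 was 4.08 for Fcgrt, 3.04 for Fcgr4, 2.40 for Fcgr2b, 2.11 for Fcgr1 and 1.97 for Fcgr3. The G-CSF arrays were closer to each other, least so for Fcgr3, where they were 0.61 apart on the log2 scale and the PBS arrays 0.98. The median SD between replicates over these genes was 0.20 with G-CSF and 0.89 with PBS. Over all tested genes the root mean square SD, a different summary, was 0.29 with G-CSF and 0.82 with PBS. Over all tested genes, too, the spread between the PBS arrays was thus the wider one. Because the summaries differ, its size was not compared between the receptors and all genes.

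**Figure D1:**
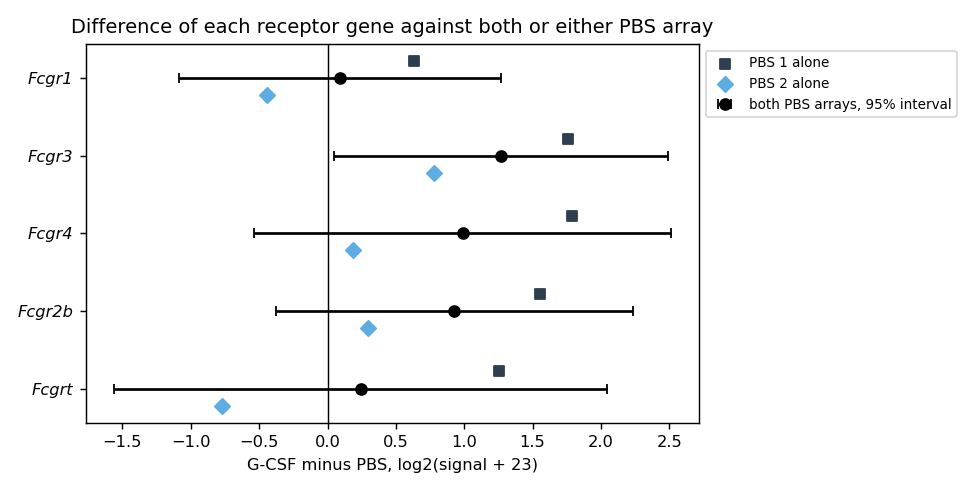
Difference of each receptor gene in log2(signal + 23), G-CSF minus PBS: black points with 95% intervals of the limma fit use both PBS arrays, dark squares PBS replicate 1 alone, and light diamonds PBS replicate 2 alone. Fcgr3, Fcgr4 and Fcgr2b stay above 0 with either PBS array, while Fcgr1 and Fcgrt fall on opposite sides of 0.

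The result thus depended on which PBS array was kept. In limma fits with 1 PBS array, which assume that the lone array varies like the others, 0 of the 5 genes were called without PBS replicate 1, where 2.78% of tested genes were called higher and 1.45% lower. Without that array the differences were 0.78 for Fcgr3, 0.29 for Fcgr2b, 0.19 for Fcgr4, −0.45 for Fcgr1 and −0.77 for Fcgrt, with adjusted p-values from 0.0883 for Fcgrt to 0.737 for Fcgr4. Without PBS replicate 2, 4 of the 5 genes were called higher, Fcgr1 being the exception (adjusted p = 0.0775), where 22.6% of tested genes were called higher and 15.9% lower. In that fit the 4 differences ran from 1.26 for Fcgrt to 1.79 for Fcgr4.

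To compare the activating receptors with the inhibitory one without the spread between arrays that they share, each was set against Fcgr2b on the same array. The level of one probe set says nothing about that of another, so only the change of this difference between groups is read. Fcgr1 minus Fcgr2b was −2.32 and −2.45 on the G-CSF arrays and −1.46 and −1.64 on the PBS arrays. Both G-CSF arrays were lower, by 0.83 on average (a change of −0.83), and the change was −0.93 against PBS replicate 1 alone and −0.74 against PBS replicate 2 alone. A two-sided exact permutation test of 2 arrays against 2 cannot go below p = 0.333, the value obtained here (adjusted over the 3 pairs, 0.999). Lower values relative to Fcgr2b on both G-CSF arrays were found for 57.3% of tested genes, and higher values on both for 1.88%, so this behaviour was the usual one.

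Fcgr3 minus Fcgr2b was 0.09 and −0.85 with G-CSF and −0.58 and −0.86 with PBS. G-CSF replicate 2 lay between the PBS arrays and replicate 1 above both, and the change was 0.34 (exact permutation p = 0.667). Fcgr4 minus Fcgr2b was −1.22 and −1.82 with G-CSF and −1.75 and −1.41 with PBS, a change of 0.06 (exact permutation p = 1). It was 0.23 against PBS replicate 1 alone and −0.11 against PBS replicate 2 alone. For Fcgr3 and Fcgr4 the SD between the G-CSF arrays, 0.66 and 0.43, exceeded the change. With the dimmer Fcgr2b probe set 1451941_a_at as the inhibitory measure, the changes were −1.25 for Fcgr1, −0.08 for Fcgr3 and −0.36 for Fcgr4, so the sign for Fcgr3 and Fcgr4 turned with that probe set. Both signs also turned without G-CSF replicate 1, at −0.13 for Fcgr3 and −0.24 for Fcgr4.

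**Figure D2:**
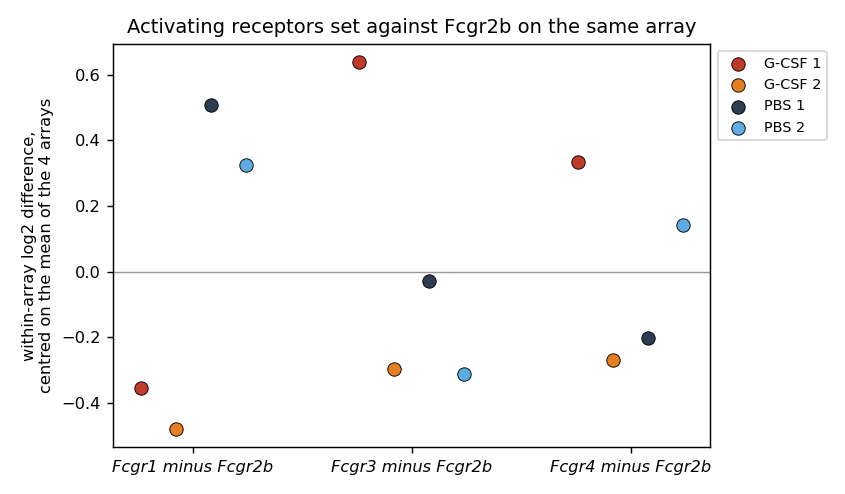
Log2 difference between each activating receptor and Fcgr2b on the same array, centred on the mean of the 4 arrays, with one point per array. Both G-CSF arrays lie below both PBS arrays for Fcgr1, and the groups overlap for Fcgr3 and Fcgr4.

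Of the genes that carry the activating signal, 8 of 16 tested had both G-CSF arrays above both PBS arrays (18.6% of tested genes), 8 overlapped and none was called. Limma called 0 of the 16 in either direction. In that fit 5 had an unadjusted p below 0.05 with G-CSF higher (3.13% of tested genes). Of the 16, 7 were apart and at least 2-fold higher (4.04% of tested genes). The list median was 0.72, and it was 0.83 and 0.72 against PBS replicates 1 and 2 alone. Fcer1g, the gamma chain on which the activating receptors depend, had signals of 5389 and 4740 with G-CSF and 1042 and 3336 with PBS, a difference of 1.42 ± 0.61 (limma adjusted p = 0.988), or 2.25 and 0.60 against PBS replicates 1 and 2 alone. It was singled out for its role after its values were seen. Its order of arrays was that of Fcgr3 and Fcgr4, with both G-CSF arrays above PBS replicate 2 and PBS replicate 1 lowest. Syk, the kinase recruited by the gamma chain, had signals of 3569 and 3122 with G-CSF and 704 and 1920 with PBS and differed by 1.50 ± 0.55, or 2.21 and 0.79 against PBS replicates 1 and 2 alone. Fgr, a Src family kinase of myeloid cells, differed by 1.48 ± 0.40, with 3715 and 2560 in the G-CSF arrays against 887 and 1341 in the PBS arrays. Btk, a Tec family kinase, differed by 1.65 ± 0.54 and Vav3, a guanine nucleotide exchange factor, by 1.40 ± 0.33. Vav3 had 877 and 830 with G-CSF and 270 and 355 with PBS, and its difference was 1.58 and 1.21 against PBS replicates 1 and 2 alone. Against PBS replicate 1 alone the adaptors and enzymes Vav1, Lcp2, Pik3cg, Rac2, Was and Cbl had negative differences, from −0.56 for Cbl to −0.11 for Was. Without PBS replicate 1, limma called 3 genes of this list higher, Vav3 (1.21), Rac2 (1.79) and Cbl (1.03), and 1 other linked gene lower, Pigr (−1.07), which carries IgA across epithelia. In that fit 2.78% of tested genes were called higher. Without PBS replicate 2, where 22.6% of tested genes were called higher, limma called 10 genes of this list higher, among them Fcer1g, Syk, Fgr, Btk and Vav3, and Cbl lower (−0.56). Over the 5 linked lists that fit called 18 genes higher and 2 lower, Cbl and Dok2. The direction of Cbl turned with the PBS array.

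Of 7 tested phosphatases and adaptors of the inhibitory arm limma called 0. The groups were apart with G-CSF higher for 5 of 7 (18.6% of tested genes) and lower for 1 of 7 (12.1%), and 1 of 7 was at least 2-fold higher (4.04%). The list median was 0.38, or 0.37 and 0.48 against PBS replicates 1 and 2 alone. Inpp5d, the SHIP1 phosphatase recruited by Fcgr2b, had signals of 1536 and 1506 with G-CSF and 751 and 1057 with PBS, a difference of 0.76 ± 0.35 (limma adjusted p = 0.988), or 1.00 and 0.52 against PBS replicates 1 and 2 alone. Dok3, an adaptor of myeloid and B cells, differed by 1.24 ± 0.41, and Ptpn6, the SHP-1 phosphatase, by 0.52 ± 0.33. Dok2, an adaptor also found in T cells, differed by −0.83 ± 0.51, with 250 and 212 in the G-CSF arrays against 670 and 271 in the PBS arrays.

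Of 9 tested genes for the partner, cargo and recycling endosome of Fcgrt limma called 0. The groups were apart with G-CSF higher for 5 of 9 (18.6% of tested genes) and lower for 0 of 9 (12.1%). By at least 2-fold, 0 of 9 were apart and higher (4.04%) and 0 of 9 lower (1.52%). The list median was 0.22, or 0.33 and 0.06 against PBS replicates 1 and 2 alone. B2m, the light chain of the neonatal receptor, had signals of 23112 and 21891 with G-CSF and 17631 and 30616 with PBS. The G-CSF arrays lay between the PBS arrays, as they did for Fcgrt, and the difference was −0.05 ± 0.35, or 0.35 and −0.44 against PBS replicates 1 and 2 alone. Alb, the albumin cargo, differed by 0.14 ± 0.23, with signals of 52315 and 46302 with G-CSF and 43301 and 46068 with PBS. B2m and Alb were named for their role after their values were seen. Of the recycling genes with the smallest p-values, Ehd1, Rab7, Rab11a and Rab4a differed by 0.54, 0.33, 0.24 and 0.33, each with an SE of 0.28 to 0.45.

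Ligands could be followed for 3 genes, all 3 lowest on PBS replicate 1. Ighg3, the IgG3 heavy chain, had signals of 199 and 227 with G-CSF and 42.9 and 248 with PBS. Crp and Apcs, pentraxins that bind Fc gamma receptors, differed by 0.15 ± 0.54 and −0.10 ± 0.91. Limma called 0 of the 3, and the groups overlapped for all 3. Other IgG heavy chain genes had no probe set of their own here and were not analysed.

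Among 8 tested receptors for other immunoglobulins limma called 0, and the median was 0.55, or 1.10 and 0.05 against PBS replicates 1 and 2 alone. The groups were apart with G-CSF higher for 3 of 8 (18.6% of tested genes) and lower for 0 of 8 (12.1%). Of the 8, 1 was apart and at least 2-fold higher (4.04%). Ms4a2, the beta chain of the IgE receptor of mast cells and basophils, was at background on both PBS arrays (18.3 and 63.6) and reached 232 and 108 with G-CSF, at least 1.58-fold higher (limma adjusted p = 0.988). This bound sets the background of each PBS array in place of its lower signal. Fcer2a, the low-affinity IgE receptor of B cells, differed by 0.87 ± 0.47, Fcrla by 0.75 ± 0.44 and Fcmr, the IgM receptor, by 0.67 ± 0.54.

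**Figure D3:**
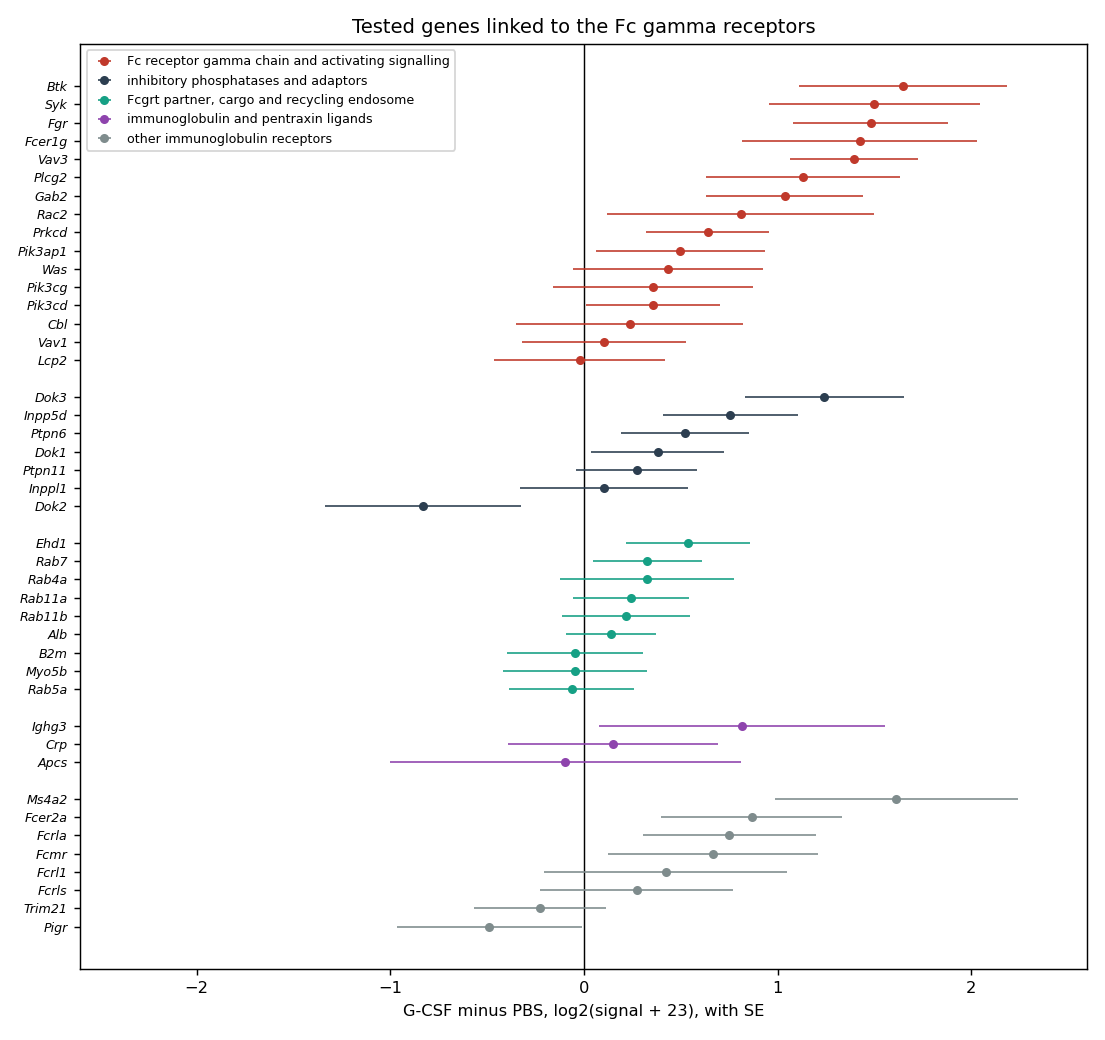
Difference in log2(signal + 23), G-CSF minus PBS, with the limma SE, for the 43 tested genes of the 5 linked lists, each list in its own colour. Btk, Syk, Fgr, Fcer1g and Vav3 lie furthest to the right in the activating list, and 0 of the 43 were called.

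Markers of the cell types that carry these receptors moved in different ways, and their part in the receptor values was not tested. Neutrophil markers were higher on both G-CSF arrays for 10 of 10 tested genes (18.6% of all tested genes), each at least 2-fold (4.04%). Their summed signal was 240377 and 204189 with G-CSF and 25723 and 8126 with PBS, 13.1-fold apart, against 1.61-fold for the summed signal of the 5 receptors. The receptor sums were 10395 and 9826 with G-CSF and 3456 and 9093 with PBS replicates 1 and 2, so that fold rested mostly on PBS replicate 1. Mpo and Mmp8 had the smallest p-values of the list, with differences of 6.71 ± 0.46 and 4.66 ± 0.39 (limma adjusted p = 0.0676 for both). Neutrophil sums were lowest on PBS replicate 2, whereas the receptors were lowest on PBS replicate 1. Gene by gene, 2 of the 10 neutrophil markers were also lowest on PBS replicate 1. Circulating monocyte markers summed to 9103 and 11270 with G-CSF and 3551 and 7100 with PBS. Of these markers, 4 of 7 were apart and at least 2-fold higher (4.04% of all tested genes), among them F13a1 and Vcan. The groups overlapped for the rest, Cx3cr1, Treml4 and Nr4a1, named after their values were seen. Their differences were −0.16, −0.18 and 0.04.

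In summed signal, the resident cell lists had both G-CSF arrays between the PBS arrays, as Fcgrt did. Tissue macrophage markers summed to 54605 and 52939 with G-CSF and 29518 and 66660 with PBS, and 7 of 7 were lowest on PBS replicate 1 (47.0% of tested genes). Kupffer cell markers summed to 19570 and 16170 with G-CSF and 9847 and 29917 with PBS over 5 tested genes, while Timd4 and Marco were below the filter. Of the 5, 4 were lowest on PBS replicate 1. The exception, Adgre4, had 625 and 604 with G-CSF, below both PBS arrays (663 and 2184). Sinusoidal endothelial markers summed to 5884 and 7056 with G-CSF and 2959 and 8592 with PBS, with 9 of 9 lowest on PBS replicate 1. Hepatocyte markers summed to 265848 and 259444 with G-CSF and 185521 and 293644 with PBS. In each of these 4 lists the G-CSF sums lay between the PBS sums, but not every gene followed. The groups were apart with G-CSF higher for 1 of 7 macrophage, 0 of 5 Kupffer cell, 1 of 9 endothelial and 2 of 7 hepatocyte markers. That pattern held for 18.6% of tested genes. They were apart with G-CSF lower only for 1 of 5 Kupffer cell markers (12.1% of tested genes).

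T cell markers summed to 857 and 738 with G-CSF and 14507 and 681 with PBS, so PBS replicate 1, where the receptors were lowest, was far above the rest. Natural killer cell markers summed to 1519 and 1547 with G-CSF and 35696 and 1257 with PBS, Gzma, singled out after its values were seen, contributing 34946 on PBS replicate 1, and 3 of its 8 matched markers (Ncr1, Klrk1 and Klra8) were below the filter. Without Gzma the natural killer sum was 1324 and 1436 with G-CSF and 751 and 956 with PBS, lowest on PBS replicate 1. B cell markers summed to 4463 and 3446 with G-CSF and 1670 and 4106 with PBS, and 6 of 7 were lowest on PBS replicate 1, as the receptors were. Dendritic cell markers summed to 11628 and 9950 with G-CSF and 6174 and 10284 with PBS, stellate cell markers to 24212 and 28224 against 13717 and 22511, and platelet markers to 11440 and 4745 against 3062 and 3490. Mast cell and basophil markers summed to 617 and 458 with G-CSF and 487 and 133 with PBS, with Mcpt8 and Ms4a2 at background on both PBS arrays.

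**Figure D4:**
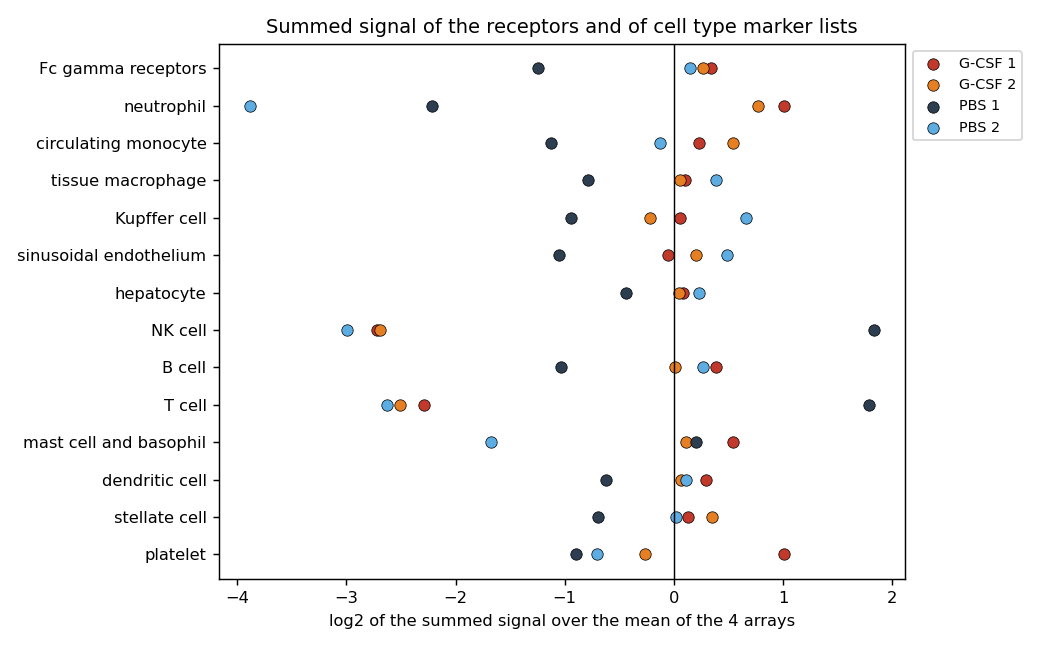
Log2 of the summed signal of the 5 receptors and of each cell type marker list on each array, over the mean of the 4 arrays. The receptors are lowest on PBS replicate 1, as are the macrophage, Kupffer cell, endothelial and hepatocyte lists. The circulating monocyte, B cell, dendritic cell, stellate cell and platelet lists are also lowest there. The neutrophil, T cell, natural killer cell, and mast cell and basophil lists are lowest on PBS replicate 2.

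Likeness was measured as the root mean square distance between log2 profiles over the 4 arrays, each centred on its own mean, among the 12187 tested genes. It describes 4 arrays, of which PBS replicate 1 weighs most. The 3 genes closest to Fcgr3 were Gm32926, Tcp11l2 and Mtus1, at distances of 0.05 to 0.07, and those closest to Fcgr4 were Hamp2, 5031439G07Rik and Slc66a2, at 0.04 to 0.05. Klrg1, Wfdc18 and Cers6 were closest to Fcgr2b, at 0.04 to 0.05, Vwa8, Disp2 and Cd99l2 to Fcgr1, at 0.02, and F12, Ang and Lbp to Fcgrt, at 0.02 to 0.03. Among the receptors themselves Fcgr2b and Fcgr4 were the closest pair (0.25), followed by Fcgr3 and Fcgr4 (0.29), and Fcgr3 and Fcgrt were the farthest apart (0.67). Among all tested genes ranked by distance from Fcgr4, Fcgr2b came at rank 344, so the closest receptor pair was not a pair of nearest profiles.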

How the data were processed

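Expression was measured on 4 arrays. Per the submitters' processing notes the deposited intensity values are MAS5 signals, with a version not given in the sources used here, made per the labels from 40 ng of total RNA with the 3' IVT Express kit. The 2% trimmed mean was 500.003 on every array, so the authors' scaling was kept, and 0 columns lacked a sample. A pseudocount of 23, the median signal divided by 4 and rounded, was added before log2. Of 45101 probe sets, 64 controls, 932 with several genes and 9160 with none were left out. The other 34945 carry 1 gene from the platform table, 34741 of them matched by Entrez ID to RefSeq. Where a gene had several probe sets the brightest on average stood for it, and a mean above 95.0 was needed for testing. Tests used limma 3.58.1 (R 4.3.3) (lmFit, eBayes with trend, two-sided, 2 residual degrees of freedom). The number of arrays limits the precision. The procedure was also run on simulated data in which both groups had the same spread. Those data do not cover the wider spread of the PBS arrays seen here. Replicate numbers were not taken as pairs, since no label ties them (correlation of deviations −0.04). The members, lists and tests were chosen with earlier results of these data known. The text names every member, up to 4 genes per linked list and up to 2 per marker list by smallest p, and the 3 closest profiles per member. Genes outside that rule are said to be picked later, or show a call or a background level. Alternatives covered pseudocounts of 1 and 92, normalization, filters, limma settings, probe set choice, the replicate block and each array left out. The other Fcgr2b probe sets were added after seeing the data. Figures were drawn with Python 3.11.15 and matplotlib 3.10.9.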

Additional observations from a re-analysis of the deposited data

How the results depend on the processing

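With each array left out, which includes fits with a single PBS array, the difference ran from −0.45 to 0.63 for Fcgr1, from −0.77 to 1.26 for Fcgrt, from 0.78 to 1.76 for Fcgr3, from 0.19 to 1.79 for Fcgr4 and from 0.29 to 1.56 for Fcgr2b. The Fcgr1 probe sets 1417876_at and 1436625_at ran from −0.45 to 0.63 and from −0.60 to 0.27, and the Fcgrt probe set 1416978_at from −0.77 to 1.26. In these fits limma called 0 to 4 of the 5 receptor genes, 0 to 7 of their probe sets, 0 to 20 linked genes and 6 to 4689 of all genes. With the mean of all probe sets the Fcgr1 difference was −0.037. The setting named specific probe sets only left out every _a_at, _s_at and _x_at probe set. Fcgr2b then had no value, since its remaining probe set was below the filter. Among those left out were 1435476_a_at and 1451941_a_at, which passed the filter and differed by 0.97 and 1.34. Under the other alternatives with all 4 arrays the receptor genes kept their direction and none was called. Over all genes 33 were called with array weights, 11 with specific probe sets only and 92 with the replicate block, against 0 in the unblocked fit of all arrays. The block called 0 of the receptors. The pairing by replicate number rests on no label. The count at an unadjusted p below 0.05 was 429, and it was 787 with no filter, 266 with the 75th percentile filter and 149 to 6081 with an array left out. The count at least 2-fold apart was 677, 378 with the 75th percentile filter and 843 to 3356 with an array left out. With Fcgr2b measured by 1451941_a_at, chosen after seeing the data, the change relative to Fcgr2b was −1.25 for Fcgr1 and −0.36 for Fcgr4. With each array left out that change ran from −0.93 to −0.74 for Fcgr1, from −0.13 to 0.81 for Fcgr3 and from −0.24 to 0.36 for Fcgr4, so the last 2 turned sign without G-CSF replicate 1, and Fcgr4 also without PBS replicate 1. The median of the other immunoglobulin receptors was −0.23 with the 75th percentile filter. Causes of these shifts were not tested beyond the number of genes and arrays that each setting keeps.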
